A study of Caenorhabditis elegans with 2 samples.

Results

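Peaks of CEH-91 that passed the reproducibility threshold of a ranked list and are nevertheless absent from the authors' matching final peak list numbered 357, among 176237 ranked peaks over 4 lists. Merged along the Caenorhabditis elegans genome, they formed 50 loci with left-out peaks in all 4 lists, 22 in 3 lists, 27 in 2 and 22 in 1. The lists share reads of the same 2 samples and are not replicates of one another, and the 357 peaks had 279 distinct coordinates. Presence in several lists is therefore not independent support for a locus. CEH-91 belongs to the homeodomain family of DNA-binding proteins, and chromatin immunoprecipitation followed by sequencing (ChIP-seq) maps where such a protein sits by recovering the DNA attached to it. The 2 samples, biological replicates 1 and 2, form 1 group: whole young adult worms of strain RW12305, 62.5 hours old, synchronised by bleaching and L1 starvation. All of them carry the CRISPR insertion st12305[ceh-91::TY1::EGFP::3xFLAG] on chromosome III, so the tagged protein is made from its own gene, and no untagged worms are among the samples analysed here. The description says that the precipitation used an antibody against GFP, whereas the antibody field names ceh-91, and chromatin was sonicated, with 200 to 800 given as the size range.

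Peak lists were deposited in pairs, 1 ranked and 1 thresholded, per replicate and for 2 whole-series comparisons. The conservative comparison set the replicates against each other, and the second is read here as pooled pseudoreplicates, because 59.4% of the input peaks of the conservative comparison had coordinates of a replicate's own ranked peaks, against 0.000999% of those of the pooled one. Each ranked peak carries the global irreproducible discovery rate (IDR). It estimates, among peaks ranked at least as high, the share that does not repeat between the 2 inputs of a comparison. The lists of replicates 1 and 2 belong to 1 sample each, and only the conservative comparison set the replicates against each other. Passing in another list need not mean that a peak repeated between the 2 samples. A peak counted as left out when the −log10 of its global IDR was at least 2 (IDR of at most 0.01) in a ranked list and its chromosome, start and end were missing from the matching thresholded list. The members were therefore chosen by IDR and by absence, and the signal on which peaks are ranked went into the same choice, so counts, IDR and signal below describe them and carry no test. The left-out peaks are set beside the listed peaks, those in the thresholded lists, which merged into 1806 loci.

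Tandem repeats are stretches in which a short unit follows itself head to tail. The worm genome holds many arrays with units longer than those of simple repeats, known as minisatellites, spread over every chromosome and often between genes. Sequencing reads from such arrays can match several copies, and the number of copies in a living strain can differ from that in a reference assembly, so read depth over them is known to be hard to compare with depth over single-copy DNA.

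Sequence is shown here because most left-out loci lay in such arrays and fell into families with a shared word. A family is a set of loci that share a 10-letter word, on either strand, with at least 2 copies in each locus. A shared word need not mean a common unit, since the spacing ran from 60 to 96 bp in family 8 and from 68 to 94 bp in family 14. Whether loci could share a word by chance was not tested. Capitals mark the copies of the family's word, each window reaches 60 bp to either side of the summit of the strongest peak, and all letters are the plus strand of the RefSeq genome WBcel235 (ce11). The 10 windows below belong to the strongest left-out loci on chromosomes II to V and X, at most 2 per chromosome. Family 1 had the word CAGAGAGTAA (reverse complement TTACTCTCTG), family 2 the word AAATAGATTG (reverse complement CAATCTATTT) and family 4 the word CAGAGTCACT (reverse complement AGTGACTCTG).
family 1, chrX:110444-110564: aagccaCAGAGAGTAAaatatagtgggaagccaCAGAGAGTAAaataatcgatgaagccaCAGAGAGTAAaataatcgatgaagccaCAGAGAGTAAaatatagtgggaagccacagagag
family 1, chrIV:2828913-2829033: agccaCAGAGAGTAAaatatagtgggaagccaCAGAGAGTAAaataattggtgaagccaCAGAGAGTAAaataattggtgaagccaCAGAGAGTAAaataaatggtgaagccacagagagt
family 1, chrIV:9047435-9047555: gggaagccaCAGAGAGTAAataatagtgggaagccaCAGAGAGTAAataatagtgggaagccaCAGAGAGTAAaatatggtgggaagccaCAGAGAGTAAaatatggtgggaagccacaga
family 1, chrII:14337796-14337916: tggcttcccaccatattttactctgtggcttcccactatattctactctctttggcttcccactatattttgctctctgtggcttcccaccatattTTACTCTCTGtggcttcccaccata
family 1, chrIII:931407-931527: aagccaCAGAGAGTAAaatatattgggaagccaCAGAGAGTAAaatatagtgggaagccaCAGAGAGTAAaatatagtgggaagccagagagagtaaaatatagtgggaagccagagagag
family 1, chrIII:7447935-7448055: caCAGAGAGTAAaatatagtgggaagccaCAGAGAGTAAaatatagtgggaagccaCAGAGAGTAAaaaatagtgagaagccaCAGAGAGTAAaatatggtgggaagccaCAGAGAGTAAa
family 2, chrV:16708925-16709045: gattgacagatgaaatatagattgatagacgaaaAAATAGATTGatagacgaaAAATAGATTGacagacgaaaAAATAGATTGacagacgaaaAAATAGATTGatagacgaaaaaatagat
family 2, chrV:16708459-16708579: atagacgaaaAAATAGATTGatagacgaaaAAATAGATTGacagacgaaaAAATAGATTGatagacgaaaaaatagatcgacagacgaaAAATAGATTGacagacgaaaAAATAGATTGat
family 2, chrII:13986274-13986394: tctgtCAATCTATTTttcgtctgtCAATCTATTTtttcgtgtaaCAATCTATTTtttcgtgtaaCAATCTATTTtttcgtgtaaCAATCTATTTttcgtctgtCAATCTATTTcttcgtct
family 4, chrX:15811048-15811168: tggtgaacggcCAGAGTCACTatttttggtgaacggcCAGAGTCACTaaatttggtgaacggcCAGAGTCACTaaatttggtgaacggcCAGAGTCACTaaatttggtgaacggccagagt

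In the family 1 windows on chromosomes X, III and IV the unit of 27 bp returned with few changes, and the window chrII:14337796-14337916 carried it on the other strand with 1 exact copy of the word. In family 2 the unit was shorter and richer in A and T, at a median GC content of 26.5% over the loci of the family, against 39.0% in family 1 and 43.5% in family 4.

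Further families with at least 3 loci have 1 window each below. It comes from the locus of the family on chromosomes II to V and X with the highest conservative signal, or the highest in any list where the locus was not left out in the conservative one, and these were picked after their values were seen. Family 3 had the word ATTGGTGCTA, family 5 CTAGAAAAAT, family 6 TCTAACCATT, family 7 CTAATGTTCT, family 8 TTCAGTTGAG and family 9 AAGGATCAGA, again marked in capitals on either strand.
family 3, chrX:12277953-12278073: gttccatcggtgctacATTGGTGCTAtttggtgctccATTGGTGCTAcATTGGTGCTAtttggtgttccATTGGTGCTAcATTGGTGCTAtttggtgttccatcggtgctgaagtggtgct
family 5, chrV:7922631-7922751: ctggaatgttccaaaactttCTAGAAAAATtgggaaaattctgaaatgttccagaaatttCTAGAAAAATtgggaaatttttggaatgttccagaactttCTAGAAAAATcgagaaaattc
family 6, chrX:11785761-11785881: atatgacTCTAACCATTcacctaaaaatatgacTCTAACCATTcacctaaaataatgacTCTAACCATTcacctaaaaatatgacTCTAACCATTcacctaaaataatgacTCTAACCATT
family 7, chrIV:13549434-13549554: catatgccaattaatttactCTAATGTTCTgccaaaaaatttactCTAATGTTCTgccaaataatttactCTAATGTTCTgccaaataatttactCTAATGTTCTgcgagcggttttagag
family 8, chrIII:8863115-8863235: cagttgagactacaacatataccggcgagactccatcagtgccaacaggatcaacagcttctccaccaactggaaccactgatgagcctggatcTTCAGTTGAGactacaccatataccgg
family 9, chrIV:10945782-10945902: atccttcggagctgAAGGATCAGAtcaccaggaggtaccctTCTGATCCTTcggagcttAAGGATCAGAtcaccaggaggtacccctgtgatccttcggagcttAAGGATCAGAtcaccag

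The family 7 window was chosen by its replicate 2 signal of 172. In both whole-series lists it had 72.9, less than the family 7 locus chrIV:6358205-6358514, with 119. Family 8 differed from the others in that its window held a single copy of its word, because its units were long, with a median spacing of 78 bp over its 4 loci. In family 9, whose unit was 45 bp long, the word also occurred as its own reverse complement within the same unit.

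Left-out peaks made up a small share of the peaks past the threshold in every list. The conservative list had 88 left-out peaks among 1700 past the threshold (5.18%, exact Clopper-Pearson 95% interval 4.17 to 6.34), and 3.21% of its 53026 ranked peaks passed. In the pooled list 105 of 1821 were left out (5.77%, 4.74 to 6.94), with 3.64% of 50055 ranked peaks passing. Replicate 1 had 56 of 1236 left out (4.53%, 3.44 to 5.84), with 3.48% of 35497 ranked peaks passing. Replicate 2 had the highest share, 108 of 1082 (9.98%, 8.26 to 11.9), with 2.87% of 37659 ranked peaks passing. These intervals cover counting error over peaks only. The remaining peaks past the threshold, 1612, 1716, 1180 and 974 in the same order of lists, were all listed. In none of the 4 lists did a left-out peak share even 1 bp with a listed peak of its own list. The notes deposited with the lists name, for each thresholded list, 1 further input file that is not named for the ranked lists; its content and use are not stated, and its part in the absence of these peaks was not tested.

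Many left-out peaks were far past the threshold. The −log10 of the IDR ends at 5 in these files, and 35 of 88 left-out peaks stood at that ceiling in the conservative list, against 310 of 1612 listed peaks (39.8% and 19.2%). In replicate 2 the ceiling held 68 of 108 left-out peaks and 281 of 974 listed peaks (63.0% and 28.9%). Near the threshold, the 3 left-out peaks of the conservative list with the weakest rates had −log10 values of 2.06, 2.06 and 2.11 and signals of 64.7, 74.2 and 75.5, and the 3 ranked peaks just below it had values of 1.99966, 1.99835 and 1.99705 and signals of 82.0, 55.6 and 77.3. The signals on the 2 sides of the threshold overlapped.

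**Figure D1:**
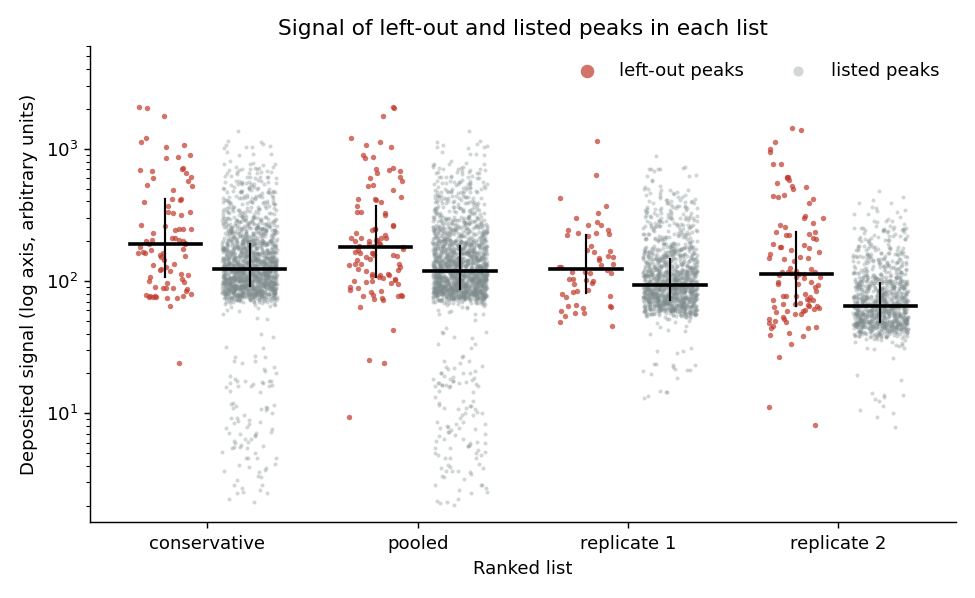
Deposited signal (log axis) of every peak past the threshold in the 4 ranked lists, with left-out peaks in red at the left of each pair and listed peaks in grey at the right; black bars are medians and vertical lines span the quartiles. The left-out medians were 192, 181, 124 and 114, each above the listed median of its list (123, 119, 94.2 and 65.3), and the ranges overlapped in every list.

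The left-out peaks included the strongest signals of the data. Signal is the authors' own value per peak, on a scale that holds within a list. In the conservative list left-out peaks had a median signal of 192 (quartiles 107 and 419, range 23.9 to 2062), against 123 (91.1 and 191, range 2.14 to 1362) for listed peaks, a log2 ratio of medians of 0.65. The log2 ratio of medians was 0.61 in the pooled list, 0.40 in replicate 1 and 0.80 in replicate 2. Of the 10 highest signals, 5 were left out in the conservative list, 5 in the pooled list, 1 in replicate 1 and 10 in replicate 2. Of the 20 highest, 7, 7, 2 and 18 were left out. Replicate 2 thus kept none of its 10 strongest peaks in its final list, whereas replicate 1 kept 9.

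The strongest locus was chrX:110363-110622, an array of family 1 that overlapped no gene and lay 1334 bp from the nearest annotated start, that of elk-2. Its signal was 2062 in both whole-series lists, which carry 1 common value for a shared peak, 630 in replicate 1 and 1448 in replicate 2. It ranked 1 in the conservative list, 11 in replicate 1 and 1 in replicate 2. The locus chrX:15810944-15811257, of family 4, came next with 2025 in the conservative list, 1148 in replicate 1 and 1124 in replicate 2, and it was the left-out locus that led replicate 1. On chromosome V, family 2 held a row of 4 loci within 1816 bp, its nearer end 709 bp from the start of clec-9, a gene of the C-type lectin family. The strongest of these, chrV:16708829-16709173, had signals of 1764 in the conservative list, 427 in replicate 1 and 1385 in replicate 2. Its neighbour chrV:16708371-16708679 had 1207, 371 and 989. On chromosome IV, 3 loci of family 1 followed: chrIV:2828824-2829139 had 1122 in the conservative list, 243 in replicate 1 and 939 in replicate 2; chrIV:9047344-9047643 had 1062, 278 and 769; and chrIV:9048427-9048726 had 1040, 298 and 764. All of these except the family 4 locus were higher in replicate 2, with log2 ratios of replicate 1 to replicate 2 from −1.95 to −1.20, on a scale that may differ between libraries. In replicate 1 the fifth highest left-out signal was 326, at chrI:934031-934330 of family 1, where the conservative list had 897 and replicate 2 had 617.

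The left-out peaks lay in repeats in nearly every case. Of the conservative left-out peaks 82 of 88 (93.2%, 85.7 to 97.5) had at least 50% of their bases in the lower-case letters by which the reference marks repeats and simple sequence, against 566 of 1612 listed peaks (35.1%, 32.8 to 37.5) and 17.5% of the 51326 ranked peaks that did not pass. The left-out share was 96.2% in the pooled list, 92.9% in replicate 1 and 97.2% in replicate 2, against listed shares of 34.8%, 36.6% and 39.0%. Stretches of 36 bases that occur more than once in the genome filled at least 50% of the positions in 81 of 88 conservative left-out peaks (92.0%), against 98 of 1612 listed peaks (6.08%). The median left-out peak of that list was made of such stretches with 11 copies, and the median listed peak of stretches with 1 copy.

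The repeats were mostly tandem. A region is called tandem here when at least 70% of its bases equal the base at a fixed spacing of 2 to 200 bp downstream. That held for 77 of 88 left-out peaks in the conservative list (87.5%, 78.7 to 93.6), against 38 of 1612 listed peaks (2.36%, 1.67 to 3.22) and 1.27% of peaks that did not pass. Among the merged left-out loci, 102 were tandem (84.3%), against 44 of 1806 listed loci (2.44%), and 60 left-out loci were masked over their whole length. A spacing of 25 to 27 bp was found in 58 of the 102 tandem loci, within a full range of 9 to 138 bp.

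**Figure D2:**
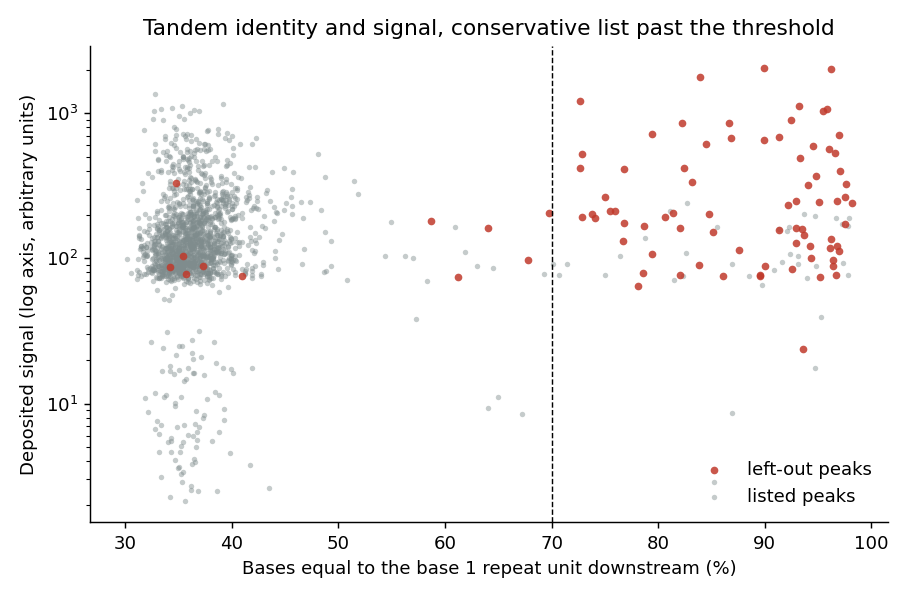
Each point is a peak of the conservative list past the threshold: the horizontal axis gives the percentage of bases equal to the base 1 repeat unit downstream, the vertical axis the deposited signal (log axis), with left-out peaks in red and listed peaks in grey and a dashed line at 70%. Right of the line are 77 left-out and 38 listed peaks, and every signal above 242 there is left out; left of it are 11 left-out and 1574 listed peaks.

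Some tandem peaks were listed. Of the tandem peaks past the threshold in the conservative list, 77 were left out and 38 listed (67.0% left out, 57.6 to 75.4), against 11 of 1585 peaks that were not tandem (0.694%, 0.347 to 1.24). The left-out share of tandem peaks was 68.9% in the pooled list (91 of 132), 71.4% in replicate 1 (50 of 70) and 79.4% in replicate 2 (100 of 126). In the conservative list, left-out tandem peaks had a median signal of 206 (range 23.9 to 2062), and listed tandem peaks one of 92.2 (range 2.87 to 242). A spacing of 25 to 27 bp was found in 38 of these 77 left-out peaks and in 3 of the 38 listed ones. The median number of genome copies of a 36-base stretch was 14 in the left-out tandem peaks and 5.5 in the listed tandem peaks of the conservative list, where both sets were wholly masked at the median. The copy medians were 15 and 6 in the pooled list and 13 and 5 in replicate 1 for left-out and listed tandem peaks, but in replicate 2 they were 15 for left-out and 15.5 for listed tandem peaks.

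By shared words, 99 left-out loci fell into 9 families of at least 3 loci, 10 into 5 families of 2 loci, and 12 into none. Family 1 was the largest, with 52 loci (43.0%) on all 6 chromosomes and 19 of them on X. Its median spacing was 27 bp and its members repeated themselves at a median identity of 93.0%. In the conservative list, peaks with at least 2 copies of its word numbered 35 among the 88 left-out peaks (39.8%), 3 among the listed peaks (0.186%) and 42 among the peaks that did not pass (0.0818%). Their median signals were 335 when left out, 188 when listed and 53.1 when they did not pass. The genome held 57 arrays of this word, each with at least 3 copies no more than 100 bp apart. Left-out loci covered 25 of these arrays and listed loci 5, a ranked peak that did not pass lay on 6, and 21 had no ranked peak in the conservative list. Arrays with a left-out locus had a median of 47 copies, listed arrays 71, arrays with a peak that did not pass 13.5, and arrays with no peak 7.

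Family 2, with 14 loci on chromosomes II, IV, V and X, had a median spacing of 20 bp. Its word occurred at least 2 times in 11 left-out, 1 listed and 37 other ranked peaks of the conservative list, with median signals of 523, 210 and 46.0. Of its 62 arrays, 8 held left-out loci, 8 listed loci, 20 a ranked peak that did not pass and 26 none. Family 5, with a unit of 40 bp, was listed more often than left out. Its 5 left-out loci all lay in 1 array of 192 copies on chromosome V, and 10 of the 15 conservative peaks past the threshold with its word were listed, at a median signal of 162 against 145 for the 5 left out. Its 8 listed arrays had a median of 12.5 copies. Family 4 had 6 loci on V and X with a spacing of 26 bp, and its signals in the conservative list ran from 112 to 2025. Families 6, 7 and 9 had 4, 4 and 3 loci with median spacings of 26, 25 and 45 bp. No listed conservative peak held 2 copies of their words, but only 1, 1 and 3 peaks past the threshold did. Peaks with their words that did not pass numbered 9, 9 and 6. Families 3, 4 and 8 likewise had no listed conservative peak, among 6, 5 and 3 past the threshold.

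The 50 loci with left-out peaks in all 4 lists were 45 tandem ones and 5 others, 25 of family 1 and 7 of family 2. Their signals ran from 76.7 to 2062 in the conservative list (median 384), from 48.7 to 1148 in replicate 1 (median 133) and from 38.4 to 1448 in replicate 2 (median 229). The 22 loci in 1 list were weaker: 11 came from replicate 2, with signals of 33.4 to 72.0, 7 from the conservative list, with 64.7 to 88.8, 3 from the pooled list, with 9.34 to 82.6, and 1 from replicate 1, with 57.6. The highest of the conservative list was chrV:7924246-7924555, of family 5, at 88.8 and 1228 bp from the start of srsx-7, a predicted chemoreceptor gene. It was followed by chrV:17126858-17127167 at 86.5 and chrI:4535869-4536178 at 78.4, a locus 1064 bp from bet-1, which encodes a bromodomain protein. The highest of the pooled list were chrIII:7594773-7595082, of family 7, at 82.6 and chrX:10361355-10361664, of family 1, at 78.7.

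The replicates contributed unequally to the loci. Replicate 1 held left-out peaks at 56 loci and replicate 2 at 102, of which 50 were common. A further 52 loci were past the threshold in replicate 2 and not in replicate 1, and 31 of them had a ranked peak in replicate 1, at a median signal of 45.3 in replicate 1 and 73.0 over the 52 loci in replicate 2. The reverse was found at 6 loci, 5 of which had a ranked peak in replicate 2. Listed loci had the opposite balance, with 784 in both replicates, 376 in replicate 1 and not 2, and 176 in replicate 2 and not 1. The same 1 control alignment is named for both replicates.

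Left-out loci came in short rows. Joining loci less than 10 kb apart gave 54 tracts, of which 34 held at least 2 loci and 101 loci in all (83.5%), with a median span of 1811 bp. In 31 of the 34 all loci belonged to a single family, or all to none. Families were built from words shared between loci, and neighbours in 1 array share words. That count therefore follows in part from the definition of a family. By the same rule 906 of the 1806 listed loci (50.2%) had such a neighbour. None of the 1806 listed loci lay inside any of the 54 tracts, and 57 of the 51326 conservative ranked peaks that did not pass did. The share of the genome within the tracts was not set beside these counts. The nearest listed locus was 38634 bp away at the median and 1939 bp at the closest. On chromosome III, 7 loci of family 1 followed one another within 3590 bp at chrIII:7444554-7448143, in a stretch whose right end lay 5931 bp from the start of alh-12, a gene of the aldehyde dehydrogenase family. Signals along this row ranged in replicate 1 from 53.1 to 155 at the 6 loci with a ranked peak, and in replicate 2 from 59.4 to 441 at all 7.

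Few left-out loci lay near a chromosome end. Their median distance to the nearer end of the chromosome sequence was 4545 kb (quartiles 2810 and 6338 kb), beside 4471 kb for listed loci (quartiles 2496 and 6285 kb). A single left-out locus lay within 100 kb of an end (0.826%), beside 16 listed loci (0.886%) and 1.27% of all conservative ranked peaks. It was chrIII:13780023-13780341, 3460 bp from the end of the chromosome. It spanned the annotated start of pot-3, a gene related to those for the telomere-binding POT proteins. The telomere unit TTAGGC, in any rotation and on either strand, matched in 5 loci, at no more than 4 positions in a locus. Overlapping positions were counted separately, so 4 positions need not be 4 copies of the unit. No ranked peak of any list lay on the mitochondrial genome.

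**Figure D3:**
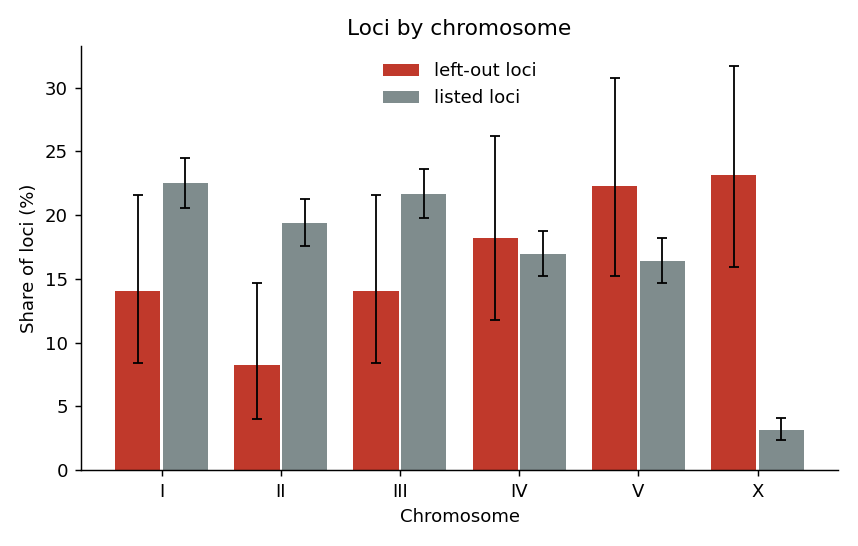
Share of the left-out loci (red, left bar of each pair) and of the 1806 listed loci (grey, right bar) on each chromosome, in percent; lines are exact Clopper-Pearson 95% intervals, which cover counting error over loci only. Chromosome X held 23.1% of left-out and 3.16% of listed loci, and chromosome II 8.26% and 19.4%; X held 14.8% of left-out, 2.67% of listed and 14.1% of all ranked peaks of the conservative list.

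Chromosome X held a larger share of the left-out loci than of the listed loci, and few of the listed peaks. It carried 28 left-out loci (23.1% of them, 16.0 to 31.7), in 13 tracts, and 57 of the 1806 listed loci (3.16%, 2.40 to 4.07). Counted by peaks in the conservative list, X held 14.8% of left-out and 2.67% of listed peaks, beside 14.1% of all ranked peaks, so the left-out share there was near that of all ranked peaks. In replicate 2 it held 24.1% of left-out, 1.33% of listed and 15.03% of all ranked peaks. Of the conservative peaks past the threshold on X, 13 of 56 were left out (23.2%), against 3.12% to 7.09% on the autosomes. In replicate 2, 26 of 39 were left out on X (66.7%), against 5.66% to 11.1% on the autosomes. Chromosome V had 27 loci (22.3%, 15.2 to 30.8) beside 16.4% of listed loci, and chromosome II had 10 (8.26%, 4.03 to 14.7) beside 19.4%. Neighbouring loci of 1 tract share their sequence, so these intervals understate the uncertainty.

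Genes were seldom touched. No annotated gene was overlapped by 109 left-out loci (90.1%), beside 691 of 1806 listed loci (38.3%), and the other 12 all touched an exon, beside 958 listed loci (53.0%). The median distance to the nearest annotated start was 2188 bp. A summit between 1000 bp upstream and 200 bp downstream of a gene start was found for 16 of 88 conservative left-out peaks (18.2%), beside 1237 of 1612 listed peaks (76.7%). Protein-coding genes were overlapped by 8 loci (6.61%), beside 950 listed loci (52.6%). No left-out locus overlapped a tRNA or small nuclear RNA gene, but such listed loci were also a small share, 84 (4.65%) and 28 (1.55%). Histone genes were not overlapped by any left-out locus, and 1 locus (0.826%) overlapped a small nucleolar RNA gene, beside 65 listed loci (3.60%).

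The loci not called tandem, by a measure limited to spacings of 2 to 200 bp, included some at or near RNA genes that occur in many copies. The locus chrV:17122896-17123205 overlapped rrn-4.2, a gene for 5S ribosomal RNA, whose copies lie in an array that also carries spliced leader RNA genes. It was left out in the pooled list, at a signal of 112, and in replicate 1, at 102, whereas replicate 2 had 18.5 there. No listed locus overlapped a gene annotated as ribosomal RNA. Further along the same tract of 4272 bp, chrV:17126858-17127167 lay 235 bp from the start of sls-1.1, a gene for the SL1 spliced leader that is joined to the front of many worm messenger RNAs. It was left out in the conservative list, with a signal of 86.5, and had 49.6 in replicate 1 and 34.5 in replicate 2. It also had 4 positions, overlapping ones included, that matched a rotation of the telomere hexamer. Beside an array of family 1, chrIV:2825603-2825912 touched an exon of clec-80, a C-type lectin gene, with 66.3 in replicate 1 and 23.3 in replicate 2. The pot-3 locus had 44.3 in replicate 2 and no ranked peak in replicate 1.

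Other loci lay near genes of varied kinds. The nearest start to chrII:13985578-13985995 and its 2 neighbours of family 2 was that of sre-47, a predicted chemoreceptor gene, 234 bp from the closest of the 3. The locus chrIV:3366875-3367184, of family 9, lay 2013 bp from vha-19, which encodes a subunit of the vacuolar proton pump, and had 85.9 in replicate 1 and 108 in replicate 2. The locus chrX:3007304-3007613, of family 2, lay 768 bp from the microRNA gene mir-249, with 234 in replicate 2 and no ranked peak in replicate 1. The pair of family 8 at chrIII:8863020-8863995, 1273 and 1939 bp from K01F9.6, was not masked in the reference at all, and its stronger locus had 128 in replicate 1 and 56.3 in replicate 2.

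**Figure D4:**
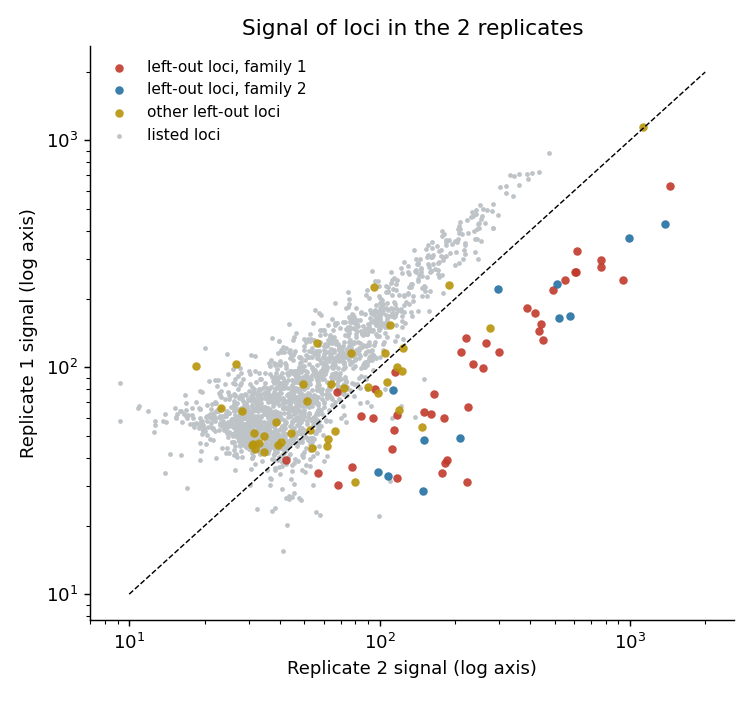
Signal of the strongest ranked peak at each locus in replicate 1 (vertical, log axis) and replicate 2 (horizontal, log axis), for left-out loci of family 1 (red), family 2 (blue) and other left-out loci (ochre), and for listed loci (grey); the dashed line marks equal values. Left-out loci were above the line in 28 of 95 cases and listed loci in 1648 of 1747; with each replicate divided by its listed median the counts were 12 and 1250.

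The balance between the replicates differed between left-out and listed loci. Both replicates had a ranked peak at 95 left-out loci, and the log2 ratio of replicate 1 to replicate 2 had a median of −0.86 there (mean −0.63 ± 1.03, SD over loci), beside 0.77 at 1747 listed loci (mean 0.76 ± 0.51). Replicate 1 was higher at 28 left-out loci (29.5%) and at 1648 listed loci (94.3%). Among loci in all 4 lists the medians were −1.10 for 50 left-out and 0.74 for 779 listed loci. When each signal was divided by the median signal of the listed peaks of its replicate, the left-out median became −1.39, and the listed one 0.24. Replicate 1 was then higher at 12 of 95 left-out loci (12.6%) and at 1250 of 1747 listed loci (71.6%). There are 2 samples of 1 group, so no test between them was possible, and loci are not replicates.

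The ratio differed between repeat families, and most peaks of family 1 had ratios below 0. In family 1 it was below 0 at 41 of 42 loci (median −1.20) and in family 2 at 12 of 12 (median −1.66). Only 25 loci of family 1 and 7 of family 2 were left out in both replicates. At loci left out in 1 replicate alone, in these families or in none, the ratio partly follows from how they were chosen. In family 3 the median was 0.21 (5 loci), in family 4 0.13 (5), in family 5 0.40 (5) and in family 8 0.48 (3). In family 6 it was −1.12 (2 loci), in family 9 −0.32 (3), and the 1 locus of family 7 with both values had −0.34. The 8 loci of no family with both values were all above 0 (median 0.56). Division by the listed medians shifted every log2 ratio by −0.53, which put the medians of families 3, 4, 5 and 8 below 0 as well (−0.32, −0.40, −0.13 and −0.05) and left 5 of the 8 loci of no family above it. The conservative peaks with the family 1 word had median ratios of −1.19 when left out (35), −0.91 when listed (3) and −0.81 when they did not pass (24). The 3 listed ones were all below 0, whereas 1 of the 35 left out and 6 of the 24 that did not pass were above it. For family 5 the medians were 0.40 when left out (5), 0.78 when listed (9) and 1.10 when they did not pass (22). All of these values come from the same 2 libraries, and the part of copy number, read placement or the shared control in them was not tested.

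**Figure D5:**
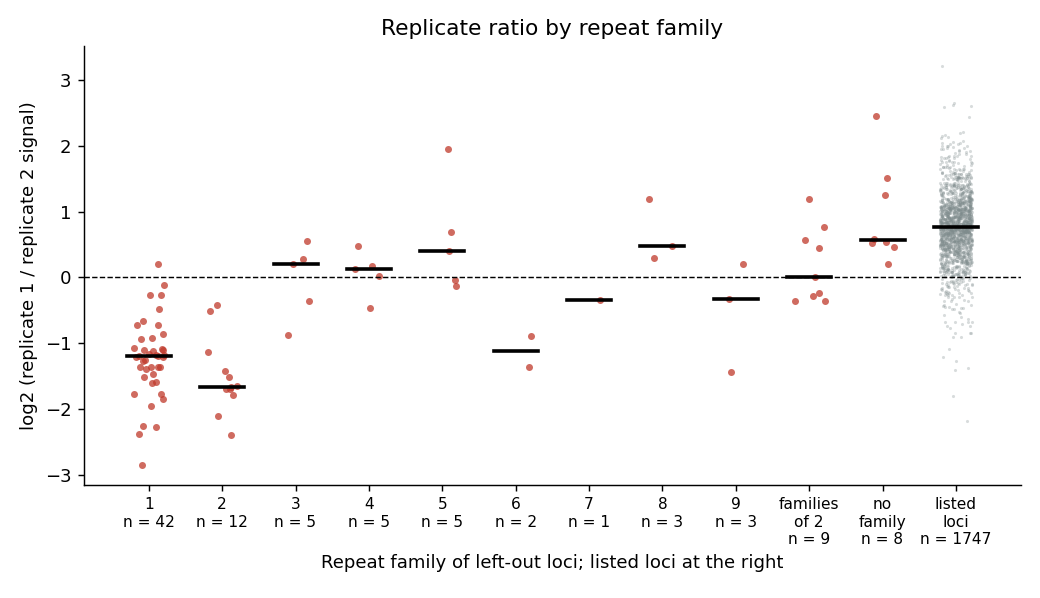
log2 of the replicate 1 signal over the replicate 2 signal at left-out loci by repeat family (red) and at listed loci (grey, at the right); each point is a locus with a ranked peak in both replicates, black bars are medians, and n is the number of loci. Family 1 (median −1.20) lay below 0 at 41 of 42 loci and family 2 (median −1.66) at 12 of 12, and listed loci lay mostly above it (median 0.77).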

How the data were processed

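Whole-worm GFP ChIP-seq of 2 replicates of 1 group was analysed from the deposited peak lists on ce11. The authors' score per peak is a whole number derived from the global IDR, the deposited signal column ranks peaks within a list, and the deposited −log10 column used here holds the global IDR. Aligner, peak caller and their versions: not given in the sources used here. No read counts are in the lists, so depth is unknown, and nothing says how the worms of each replicate were grown. The score was not used further.

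Peaks past the threshold were matched to the thresholded list by coordinates and merged where they shared at least 1 bp, which gave 121 left-out loci in all. Masking, tandem identity, 36-base copy number and shared words were computed from the RefSeq WBcel235 genome, after a check that peaks end within its chromosomes, and genes were taken from Ensembl release 115. The tandem measure was tested on simulated data. Tools were Python 3.11.15, numpy 2.4.6, pandas 2.3.3, scipy 1.17.1 and matplotlib 3.10.9. Families of words were found by taking the word shared by the most loci in turn, then assigning each locus to the word it held most often. Coordinates are 1-based.

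The members and lists were chosen with earlier results of these data known. Named are the strongest 5 loci of each list and of the loci in 1 list, the loci in all 4 lists by their range, and loci at RNA genes; other loci were named after their values were seen. Alternatives concerned the threshold, the matching, the joining distance, the lists used, and the repeat, signal and ratio measures.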

Additional observations from a re-analysis of the deposited data

How the results depend on the processing

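Of 47 alternative values over 24 results, 42 stayed within the range set for them and 5 moved. A change of direction could be labelled only for signal and for the replicate ratio over all left-out or all listed loci, and none was found there. The range for those measures was wide, 1 SD over peaks or loci to either side. Ratios by family were not among the labelled results. Scaling by the listed medians moved the medians of families 3, 4, 5 and 8 from above 0 to below it. Joining left-out peaks within 1000 bp gave 70 loci, against 50, 22, 27 and 22 in 4, 3, 2 and 1 lists when only overlapping peaks were merged. Leaving out the lists of replicate 1 and of replicate 2 in turn gave 120 and 110 loci, and the 2 whole-series lists alone gave 109. Within 500 kb of a chromosome end lay 6 loci, against 1 within 100 kb. With any masked base counted, the repeat share of replicate 1 was 98.2%, and with repeated 36-base stretches that of replicate 2 was 91.7%, against 92.9% and 97.2%. The listed ratio scaled by the listed medians was 0.24, against 0.77. A threshold of 3 left 63, 82, 44 and 97 left-out peaks. Tandem cutoffs of 60% and 80%, chosen after the data were seen, gave 109 and 83 loci, against 102. No paired analysis was possible because there is 1 group. Read depth is not in the lists, so differences that depend on it could not be weighed, and signal is comparable only within a list.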
